A study of Rattus norvegicus with 6 samples.

Results

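Cadherins, claudins and connexins are the proteins through which neighbouring cells hold on to each other, seal the space between them and exchange ions and small molecules. The genes described here are those whose symbol names a cadherin, protocadherin, claudin, occludin or other MARVEL-domain protein, zonula occludens scaffold, junctional adhesion molecule, connexin, pannexin, or alpha or delta catenin. They were 96 of the 14607 genes for which the authors listed at least 1 read in each sample. RNA-Seq was done on cells of the cerebral cortex of male Sprague-Dawley rats of 4 to 5 weeks, for which the labels give no genotype or treatment, in 3 samples of arteriolar vascular smooth muscle cells (VSMCs) and 3 samples of mid-capillary pericytes (mcPCs). VSMCs were sorted positively, with a lectin, from arterioles held back on a filter together with the first segments downstream of them, and depleted of CD31 and CD11b positive cells. mcPCs were what remained of the filtrate after removal of cells carrying CD31, CD11b, GLAST or O4, so that any cell without these surface proteins stayed with them, and each sample pooled the cortices of several animals.

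Classical cadherins bind the same cadherin on the next cell in a calcium-dependent way, and their tails bind delta and beta catenin, while alpha catenin joins the complex to actin. Claudins and occludin are the membrane proteins of tight junctions, anchored inside the cell by zonula occludens proteins, and in brain capillaries they close the gaps between endothelial cells. Connexins assemble into gap junction channels, through which electrical and calcium signals spread along the vessel wall. Clustered protocadherins are a further branch, best known from neurons, in which many similar genes stand side by side and each is read from a promoter of its own.

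The deposited table gives 1 mean per gene and cell type and no value per sample, so that the spread between isolations is unknown and no difference below was tested. Levels are the authors' mean abundances in TPM, transcript numbers corrected for length and scaled to the same sum in every sample. Differences are log2 ratios of the authors' mean normalized counts in mcPCs over those in VSMCs, positive where mcPCs were higher, and a gene is called different from a ratio of 2-fold on. The 95% intervals in brackets are exact Clopper-Pearson limits of the reads behind each ratio. They cover counting error only and hold no spread between isolations. In these bulk samples, fewer cells of a type and less RNA per cell cannot be told apart.

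Smooth muscle and mural markers went with the labels, and genes of blood and endothelial cells were also present in mcPCs. All 5 smooth muscle markers were higher in VSMCs, with a summed level of 44404 TPM against 60.9 TPM in mcPCs, and each of 6 mural markers reached at least 95.2 TPM in mcPCs. Erythrocyte genes took 54.7% of the mcPC abundance and 0.734% of that of VSMCs, which lowers the TPM of every other mcPC gene. TPM is therefore used below to compare genes of 1 cell type. Where the TPM of both cell types is printed, the difference is to be read from the ratio of normalized counts. Leaving out the erythrocyte genes multiplies each mcPC abundance by 2.21. Of 10 endothelial markers with a row, 8 were more than 2-fold higher in mcPCs, by log2 ratios of 4.01 to 6.54, against 22% of all genes. All of the 8 but Cd34 were under 1 TPM in VSMCs, where 65.8% of all genes were higher in mcPCs. Slc2a1 (-0.50) and Flt1 (-0.78) were lower in mcPCs but within 2-fold, and the median of the list was 4.53. On average 62.0 M reads (M, 1e6) were assigned to genes in a VSMC sample, and 48.0 M in a mcPC sample.

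Of the 96 junction genes, 42 (43.8%) were higher in mcPCs by at least 2-fold, against 22% of all genes, and 11 (11.5%) were at least 2-fold higher in VSMCs, against 13.9% of all genes. The remaining 43 stayed within 2-fold. The median log2 ratio was 0.72, beside 0.01 over all genes. On counts scaled to the same total, where the median over all genes is -0.55, 18 members turn from a ratio above 0 to one below it, among them Cdh2, Cldn12, Tjp1, Esam, Gja4 and Gjc1, and no direction is given for these. The VSMC level is the denominator of the ratio, so that genes low in VSMCs are higher in mcPCs more often by construction, and the members are therefore set beside all genes of the same VSMC level. Of the 40 members under 1 TPM in VSMCs, 26 (65%) were higher in mcPCs, a share also found over all 2647 genes at such levels, where it was 65.8%. Of the 37 members between 1 and 10 TPM in VSMCs, 14 (37.8%) were higher in mcPCs, against 24.4% of 3932 genes. Among the 19 members of at least 10 TPM in VSMCs, 2 (10.5%) were higher in mcPCs and 6 (31.6%) in VSMCs, against 6.33% and 18.5% of 8028 genes.

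**Figure D1:**
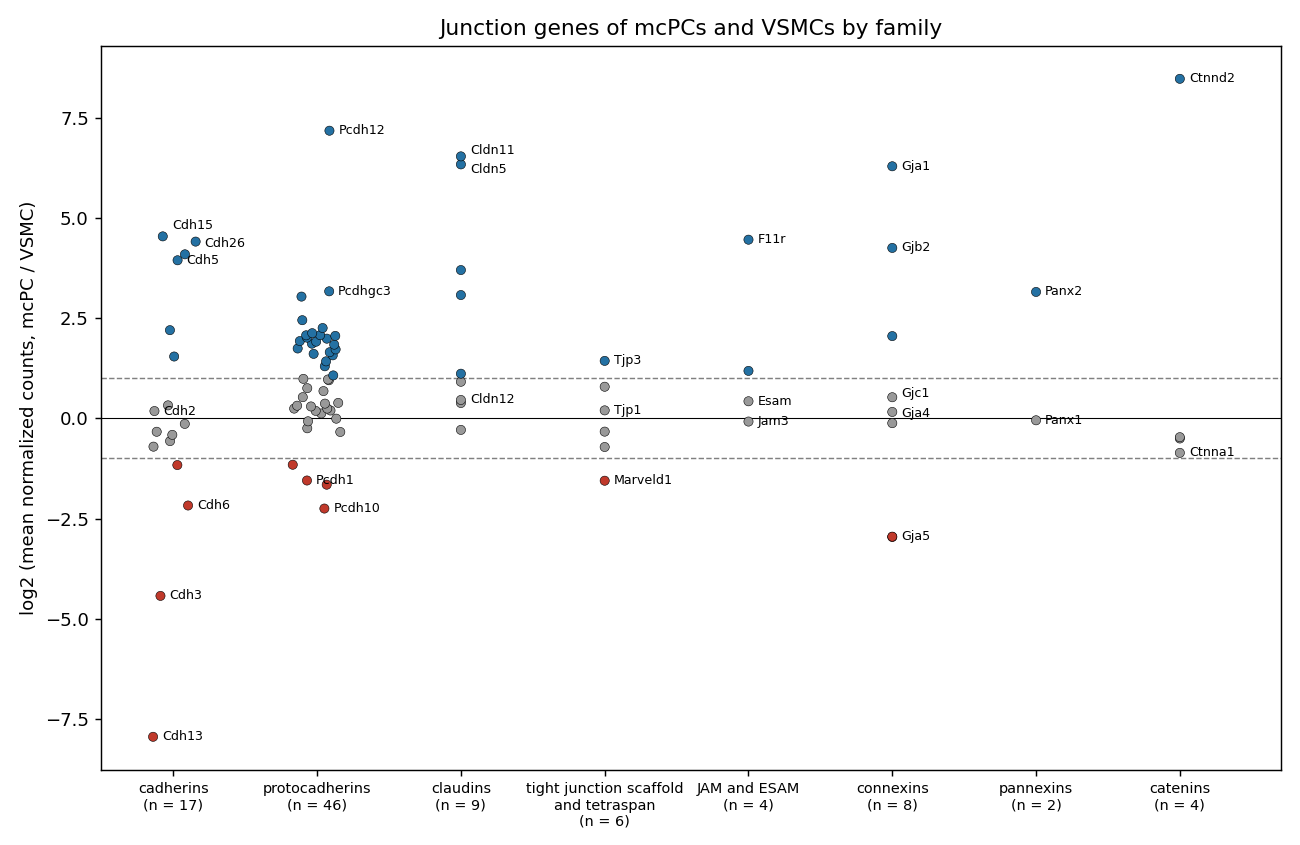
Each point is 1 of the 96 junction genes, placed by family on the horizontal axis and by its log2 ratio of mean normalized counts (mcPC over VSMC) on the vertical axis, with blue for at least 2-fold higher in mcPCs, red for at least 2-fold higher in VSMCs, grey for neither and dashed lines at 2-fold. The lowest point is Cdh13 at -7.95 and the highest is Ctnnd2 at 8.48, while Gja4, Gjc1, Tjp1, Esam and Jam3 lie within 2-fold.

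The most abundant junction genes formed a common set. Of the 10 most abundant members in each cell type, 6 were shared. In VSMCs these 10 made up 86.6% of the summed TPM of all members, and in mcPCs 82.8%. Gjc1, Esam, Gja4, Jam3, Ctnna1 and Marveld1 were the genes in both sets. In VSMCs the order began with Cdh13 at 503 TPM, Gja4 at 500 TPM, Gjc1 at 492 TPM and Esam at 487 TPM, 4 genes too close to be ranked without values per sample. In mcPCs it began with Gjc1 at 197 TPM, Esam at 184 TPM and Gja4 at 155 TPM. Cdh13 was the 59th of the members there.

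**Figure D2:**
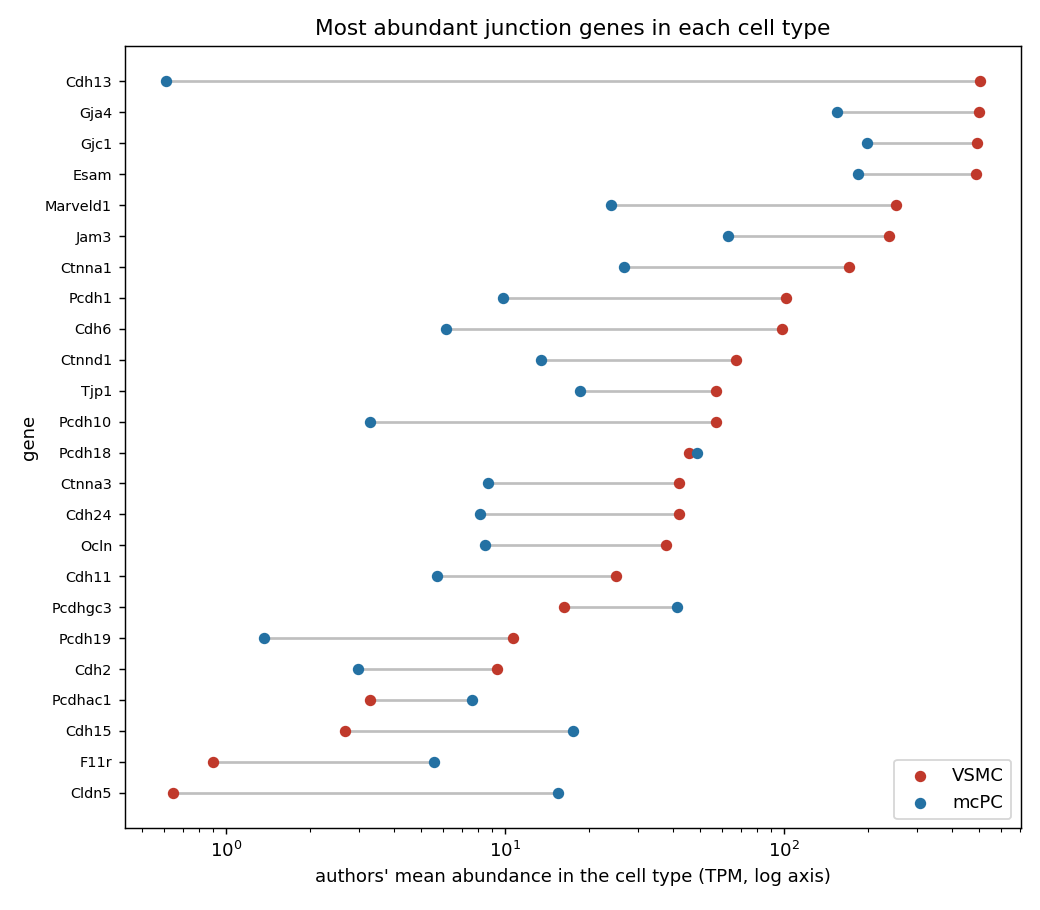
Mean abundance (TPM, log axis) in VSMCs (red) and mcPCs (blue) of the 24 genes that were among the 20 most abundant members in either cell type, ordered by their VSMC level; each grey line joins the means of 1 gene. On this scale, where erythrocyte transcripts take 54.7% of the mcPC total, most blue points lie left of the red ones, and Pcdh18, Pcdhgc3, Pcdhac1, Cdh15, F11r and Cldn5 are the genes whose mcPC level is the higher one on this scale.

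Among the 17 cadherins, 4 (23.5%) were higher in VSMCs and 6 (35.3%) in mcPCs, against 13.9% and 22% of all genes. The family had a median log2 ratio of -0.14. Of the 6, Cdh1, Cdh5, Cdh8, Cdh12 and Cdh26 were under 1 TPM in VSMCs, where 65.8% of all genes were higher in mcPCs. The largest difference was that of Cdh13 (ENSRNOG00000014371), which encodes T-cadherin, a cadherin without a cytoplasmic tail that is held in the membrane by a lipid anchor and binds adiponectin and low-density lipoprotein. It had 503 TPM in VSMCs, above 97.8% of all listed genes, and 0.607 TPM in mcPCs, above 18.5%. Its mean normalized counts in mcPCs were 0.405% of those in VSMCs, a log2 ratio of -7.95 (95% interval -8.08 to -7.81). The ratio is close to those of the smooth muscle markers Acta2 (-7.99) and Tagln (-8.02). In VSMCs Cdh13 alone gave 72.6% of the summed TPM of the cadherins, in mcPCs 1.33%.

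The other cadherins higher in VSMCs were Cdh6, Cdh3 and Cdh10. Cdh6, a type II classical cadherin, had 97.9 TPM in VSMCs and 6.13 in mcPCs, with a log2 ratio of -2.17 (95% interval -2.23 to -2.12). In both cell types it gave a like share of the cadherin TPM, 14.1% and 13.4%. Cdh3, the P-cadherin gene, had 8.15 and 0.111 TPM and a log2 ratio of -4.43 (95% interval -4.75 to -4.13). The fourth, Cdh10, was rare at 0.878 and 0.110 TPM, and its interval (-1.51 to -0.84) included the 2-fold limit.

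Cdh2, the N-cadherin gene, known for contacts between mural and endothelial cells, stayed within 2-fold, with 9.38 TPM in VSMCs, 2.96 TPM in mcPCs and a log2 ratio of 0.18 (95% interval 0.11 to 0.25). Cdh11, a cadherin of mesenchymal cells, had 25.0 and 5.69 TPM and a log2 ratio of -0.33. Cdh24 had 42.0 and 8.16 TPM and a log2 ratio of -0.57. These 3 genes, with Cdh6 and Cdh15, were the 5 cadherins that reached 1 TPM in both cell types.

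The most abundant cadherin gene of mcPCs was Cdh15, which encodes M-cadherin, known from skeletal muscle satellite cells and myoblasts. It had 17.5 TPM in mcPCs, from 3347 reads per sample, and 2.67 TPM in VSMCs, from 276 reads per sample. The log2 ratio was 4.54 (95% interval 4.44 to 4.65), and the gene gave 38.3% of the cadherin TPM in mcPCs and 0.386% in VSMCs. Cdh5, which encodes the VE-cadherin of endothelial adherens junctions, had 0.305 TPM in VSMCs against 1.48 in mcPCs, a log2 ratio of 3.95 (95% interval 3.68 to 4.22), with 370 reads per mcPC sample. Cdh1, the epithelial E-cadherin gene, had 0.121 and 0.578 TPM and a log2 ratio of 4.10, and Cdh26 had 0.227 and 1.36 TPM and a log2 ratio of 4.41. Cdh8 and Cdh12, chosen here after their values were seen to complete the 6, were at 0.0353 and 0.0379 TPM in VSMCs and at 0.0492 and 0.0320 TPM in mcPCs.

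The ratio of Cdh5 lay just below the range of 4.01 to 6.54 over the 8 endothelial markers past 2-fold. That range leaves out Slc2a1 (-0.50) and Flt1 (-0.78) of the same list. Cdh1 is a marker of meningeal and epithelial cells in the list it belongs to. In this fibroblast and meningeal list 5 of 6 genes were higher in mcPCs, Cdh1 included, against 22% of all genes. The ratios of the others ran from 7.26 (Slc6a13) and 5.04 (Ptgds) over 1.61 (Lum) and 1.54 (Dcn) to -0.13 (Col1a1). The log2 ratio of the summed normalized counts of that list was 1.30. The part of such cells in the values of Cdh5 and Cdh1 was not tested.

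**Figure D3:**
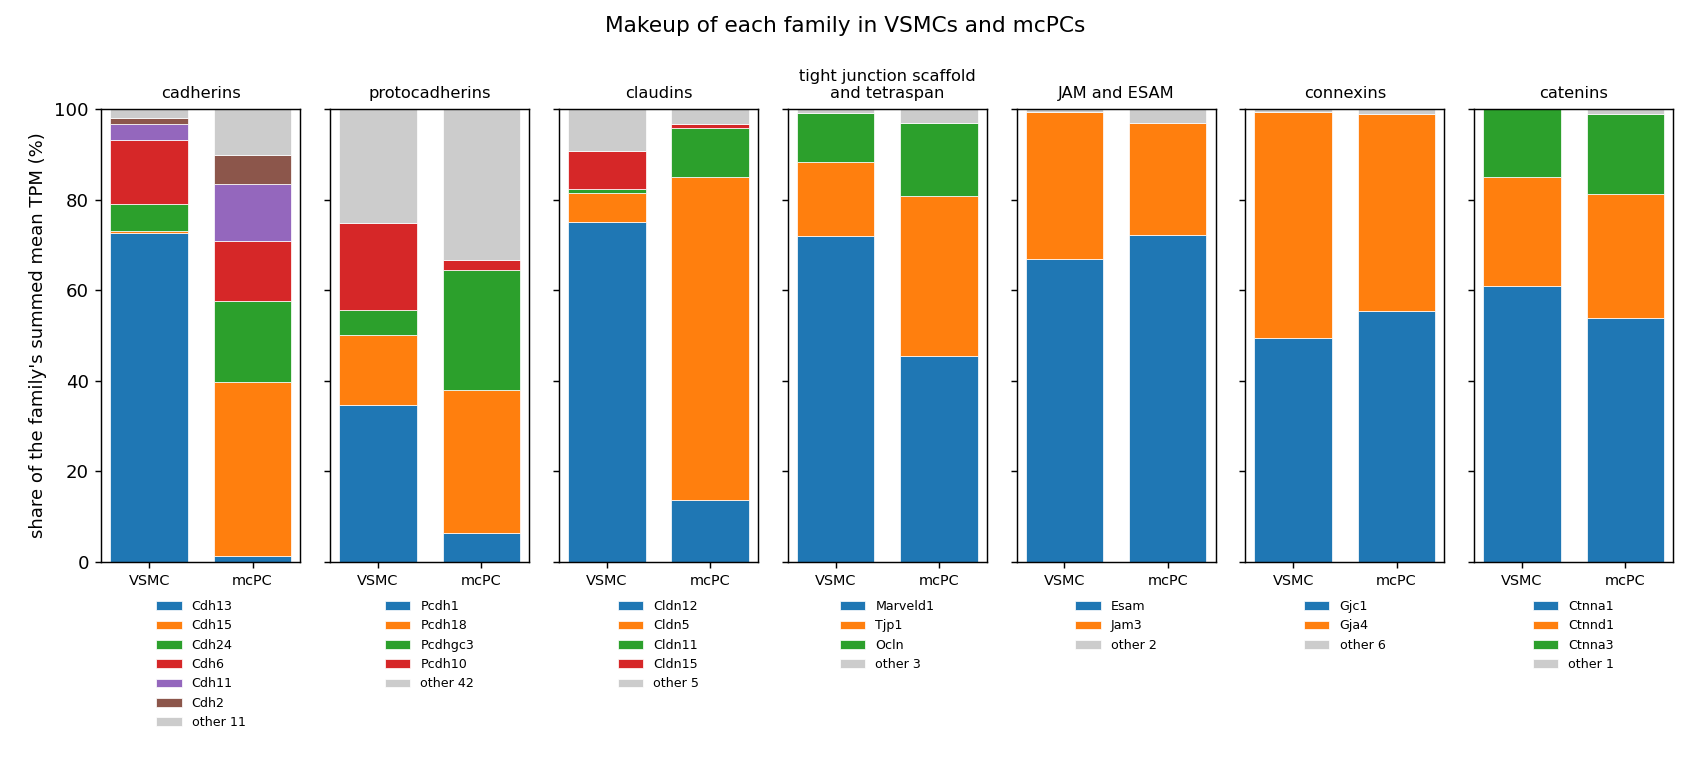
Stacked bars give the share (%) of each gene in the summed mean TPM of its family in VSMCs and mcPCs, for 7 families; up to 6 genes that reach 5% in either cell type are coloured and the others are pooled in grey. Cadherins go from Cdh13 (72.6% in VSMCs) to Cdh15 (38.3% in mcPCs) and claudins from Cldn12 (75.2%) to Cldn5 (71.3%), whereas Gja4 and Gjc1 make up nearly the whole of the connexins in both.

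The catenins, which bind to the tails of cadherins, had 3 abundant members, each lower in mcPCs but within 2-fold. Ctnna1, the widely expressed alpha catenin, had 170 TPM in VSMCs against 26.6 in mcPCs, a log2 ratio of -0.86 (95% interval -0.88 to -0.84). Ctnnd1, which encodes p120 catenin, a protein that keeps cadherins at the surface, had 67.5 and 13.5 TPM and a ratio of -0.50. Ctnna3, the alpha catenin of heart muscle, had 42.0 and 8.69 TPM and a ratio of -0.47. On counts scaled to the same total all 3 were past 2-fold in favour of VSMCs. Ctnnd2, a delta catenin of neurons, stood apart with 0.577 TPM in mcPCs, from 188 reads per sample, and 3 reads over all VSMC samples together. Its ratio was 356-fold, with a counting interval from 121-fold to 1731-fold. The 4 neuronal markers with a row were also higher in mcPCs, led by Tubb3 with a log2 ratio of 8.76, and the log2 ratio of their summed normalized counts was 4.63. Of these, Dcx, Snap25 and Tubb3 were under 1 TPM in VSMCs, where 65.8% of all genes were higher in mcPCs. Whether the reads of Ctnnd2 came from neurons was not tested.

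Protocadherins were the largest family, with 46 genes and a median log2 ratio of 1.03. Of these, 23 (50%) were higher in mcPCs and 4 (8.70%) in VSMCs, against 22% and 13.9% of all genes. They fell into 9 genes outside the clusters and 37 in the alpha, beta and gamma clusters. The 9 genes outside the clusters were divided, with 4 higher in VSMCs, 4 higher in mcPCs and Pcdh9 in neither set. Each 4 made up 44.4%, against 13.9% of all genes for VSMCs and 22% for mcPCs. Of the 4 higher in mcPCs, Pcdh11x, Pcdh12 and Pcdh20 were under 1 TPM in VSMCs, where 65.8% of all genes were higher in mcPCs. Pcdh11x rested on 5.33 reads per mcPC sample, and its interval (0.58 to 3.20) included the 2-fold limit.

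Those higher in VSMCs were Pcdh1, Pcdh10, Pcdh7 and Pcdh19. Pcdh1 had 102 TPM in VSMCs against 9.86 in mcPCs, a log2 ratio of -1.55 (95% interval -1.58 to -1.52). Pcdh10, a delta protocadherin that binds a regulator of actin assembly, had 56.9 and 3.29 TPM and a ratio of -2.25 (95% interval -2.32 to -2.19). Together they gave 34.6% and 19.3% of the protocadherin TPM in VSMCs, and 6.37% and 2.13% in mcPCs. The remaining pair was less abundant. Pcdh19, of the same delta group as Pcdh10, had 10.7 and 1.37 TPM and a ratio of -1.16, and Pcdh7 had 2.14 and 0.200 TPM and a ratio of -1.65.

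Pcdh18, also a delta protocadherin, had the opposite direction and was the most abundant protocadherin of mcPCs, at 48.8 TPM against 45.6 TPM in VSMCs. As mcPC TPM is depressed by erythrocyte transcripts, the ratio of normalized counts was larger, with a log2 value of 1.93 (95% interval 1.91 to 1.95). It rested on 18109 reads per mcPC sample and 9226 per VSMC sample. Pcdh18 and Pcdhgc3 were the 2 members of at least 10 TPM in VSMCs that were higher in mcPCs. Pcdh12, which encodes a protocadherin known from endothelial junctions, had 0.116 TPM in VSMCs and 4.68 in mcPCs, with a log2 ratio of 7.18 (95% interval 6.83 to 7.55). That is higher than the ratios of the 10 endothelial markers, of which Cd34 had the highest at 6.54.

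In the clusters, the gene groups differed. All 16 gamma genes passed 2-fold in favour of mcPCs, against 2 of 18 beta genes and 1 of 3 alpha genes, and no clustered gene was higher in VSMCs. In VSMCs gamma A and B genes had 0.634 to 2.56 TPM and beta genes 0.665 to 4.32 TPM. Of all genes, 65.8% were higher in mcPCs under 1 TPM in VSMCs, and 24.4% between 1 and 10 TPM. Over all levels 22% were higher in mcPCs and 13.9% in VSMCs. The median log2 ratio was 1.86 over 11 gamma A genes (1.07 to 2.08), 2.02 over 4 gamma B genes (1.61 to 2.26) and 0.27 over the beta genes (-0.34 to 1.72). On counts scaled to the same total 13 of the 16 gamma genes were still past 2-fold and all 16 stayed above 0, whereas 1 beta gene was past 2-fold and 5 were above 0. Pcdhgc3, the single gamma C gene with a row, had 16.2 TPM in VSMCs against 41.2 in mcPCs, a log2 ratio of 3.17 (95% interval 3.13 to 3.22). The gamma A and B genes together summed to 20.9 TPM in VSMCs, above Pcdhgc3, and to 21.1 TPM in mcPCs, below it. This comparison depends on how reads of shared exons were assigned. The counterpart in the alpha cluster, Pcdhac1, a C-type gene chosen for mention after its value was seen, had 3.29 and 7.58 TPM and a log2 ratio of 3.04 (95% interval 2.97 to 3.11).

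The reads of these genes are hard to assign. Transcripts of a gamma gene consist of a variable first exon of its own and constant exons shared by the cluster, and 11 of the 13 gamma members found in RefSeq end at the same base. The deposited effective lengths of gamma A and B genes were 2172 to 2223 bases, while Pcdhgc3 had 2598 bases and Pcdhac1 5172 bases in VSMCs. A read of a shared exon cannot be tied to 1 gene by its sequence. If only some of the gene models used for counting hold the shared exons, such reads are counted for those genes. The lengths alone do not settle which models hold them, so that the split of the reads within a cluster is uncertain. Its part in the high values of Pcdhgc3 and Pcdhac1 was not tested. Beta genes consist of 1 exon and have no such shared part, though their sequences are similar, and Pcdhb12 names 2 rows with ratios of -0.01 and 0.32.

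**Figure D4:**
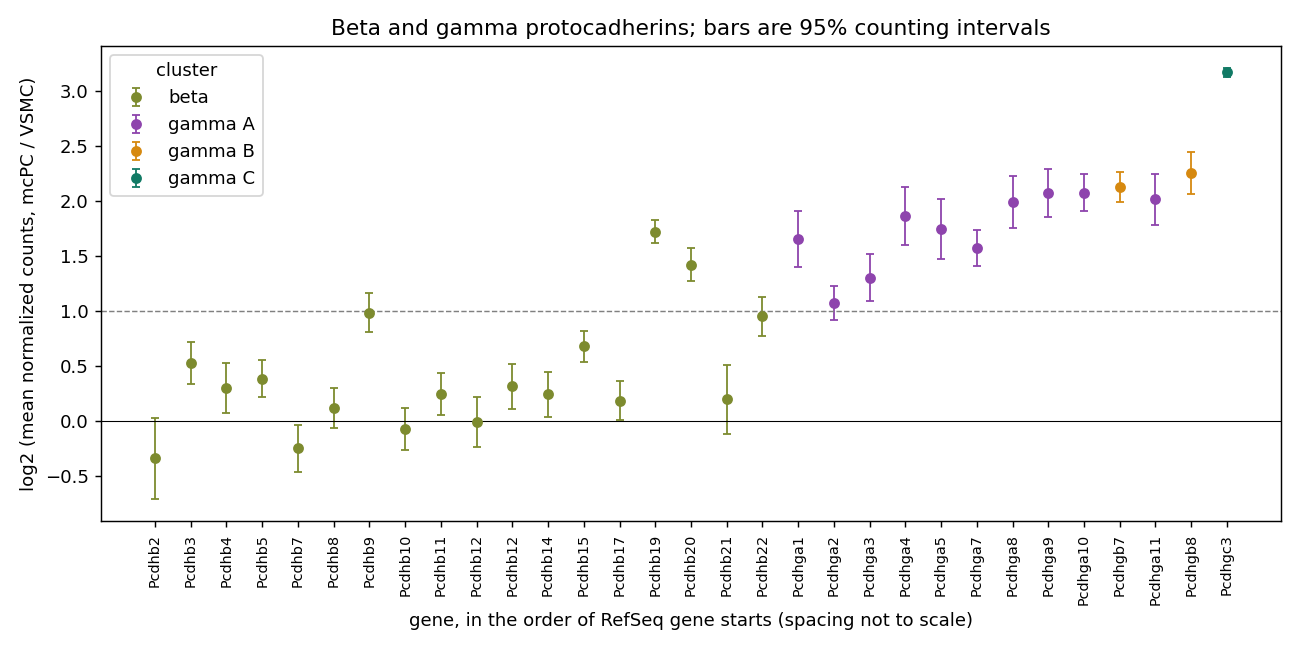
Log2 ratio of mean normalized counts (mcPC over VSMC) of 31 of the 34 beta and gamma protocadherins, in the order of their RefSeq gene starts; vertical bars are 95% counting intervals and the dashed line marks 2-fold. The beta genes lie between -0.34 and 1.72, the gamma A and B genes between 1.07 and 2.26 and Pcdhgc3, last in the order, at 3.17.

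Read along the chromosome, the beta genes came first, with ratios below 1 except for Pcdhb19 at 1.72 and Pcdhb20 at 1.42, and the gamma genes followed, from Pcdhga1 at 1.65 to Pcdhgb8 at 2.26 and Pcdhgc3 at 3.17. Neighbouring gamma genes mostly had overlapping counting intervals, and without values per sample no order among them is given. Each clustered gene has its own promoter, and the letters CCGCTGT, the core of an element shared by many promoters of these clusters, were looked for on both strands of the 300 bases around each RefSeq gene start (250 before, 50 after). This search was decided after the sequences had been seen. The counts are therefore a description and no test of a difference between gamma and beta genes. The letters were in the promoters of 6 of 12 gamma genes, in none of 13 beta genes, and in 3.55% of all 27457 genes with a promoter sequence. The stretches of the 6 gamma genes are shown to let the shared letters be seen beside the ratios. They run 5′ to 3′ on the plus strand of chromosome 18 of GRCr8, from RefSeq, with the searched letters in capitals.
Pcdhga7 (chr18:29794189-29794255): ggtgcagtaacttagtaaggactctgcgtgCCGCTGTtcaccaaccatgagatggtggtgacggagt
Pcdhga8 (chr18:29804984-29805050): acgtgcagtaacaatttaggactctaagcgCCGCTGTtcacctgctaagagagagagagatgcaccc
Pcdhga9 (chr18:29815767-29815833): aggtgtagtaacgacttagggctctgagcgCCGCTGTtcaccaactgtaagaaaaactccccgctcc
Pcdhga10 (chr18:29825798-29825864): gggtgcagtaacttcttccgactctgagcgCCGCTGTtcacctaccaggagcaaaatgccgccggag
Pcdhgb8 (chr18:29839480-29839546): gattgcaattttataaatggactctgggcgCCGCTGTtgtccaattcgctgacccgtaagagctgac
Pcdhgc3 (chr18:29884050-29884116): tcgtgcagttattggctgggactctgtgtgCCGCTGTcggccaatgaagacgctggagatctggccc

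The 6 gamma genes with the letters had log2 ratios of 1.57 to 3.17 (median 2.08), and the 6 without them 1.07 to 2.02 (median 1.70). The ranges overlap. A promoter in which the letters were not found says only that this exact spelling is not in this window.

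Among the 9 claudins, 5 were higher in mcPCs and none in VSMCs, with a median log2 ratio of 1.12. In VSMCs 8 of the 9 were under 1 TPM, a level at which 65.8% of all genes were higher in mcPCs, and the 5 were among these 8. Only Cldn12 reached 1 TPM in both cell types. Cldn5, the main claudin of the blood-brain barrier, had 0.643 TPM in VSMCs, from 32.0 reads per sample, and 15.4 TPM in mcPCs, from 1355 reads per sample. Its log2 ratio was 6.34 (95% interval 6.05 to 6.65), and it gave 71.3% of the claudin TPM in mcPCs. Cldn11, known from myelin and from the arachnoid barrier, had 0.0893 and 2.34 TPM and a log2 ratio of 6.54 (95% interval 5.85 to 7.33), with 5.67 reads per VSMC sample. Cldn1, a claudin of epithelial barriers, had 0.0324 and 0.114 TPM and a ratio of 3.70, from 26.3 reads per mcPC sample. Cldn12 stayed within 2-fold at 7.55 and 2.95 TPM, with a log2 ratio of 0.46 (95% interval 0.38 to 0.54), and gave 75.2% of the claudin TPM in VSMCs. Cldn15 was below 1 TPM in both, with a ratio of -0.29 whose interval included 0.

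The endothelial markers next to these claudins were rarer in mcPCs than Cldn5, except Cd34 (32.4 TPM) and Slc2a1 (23.9 TPM). Vwf had 8.03 TPM and Tie1 2.76 TPM there. Of the oligodendrocyte lineage list, 5 of 6 genes with a row were past 2-fold in favour of mcPCs, and the log2 ratio of their summed normalized counts was 1.76. Mobp, Mog, Olig2 and Pdgfra were under 1 TPM in VSMCs, where 65.8% of all genes were higher in mcPCs. The ratio of Mog, a gene of mature oligodendrocytes, was 1.12. The paper lists Cldn5 among contaminating endothelial transcripts, and left genes under 0.8 TPM in VSMCs out of its final dataset. Cldn5, Cldn11, Cdh5, Cdh1, Gja1 and Pcdh12 were under this limit. The part of endothelial and oligodendrocyte lineage cells in the values of Cldn5 and Cldn11 was not tested.

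Of the 6 scaffold and tetraspan genes of tight junctions, 3 were well above 1 TPM in both cell types. Tjp1, which encodes the scaffold ZO-1, had 57.0 TPM in VSMCs against 18.6 in mcPCs, a log2 ratio of 0.20 (95% interval 0.18 to 0.22). Ocln, the occludin gene, had 37.7 and 8.45 TPM and a ratio of -0.33 (95% interval -0.37 to -0.29). Marveld1 was the most abundant of the group in both cell types, at 251 and 24.0 TPM, and was higher in VSMCs by a log2 ratio of -1.56 (95% interval -1.58 to -1.53). Tjp3 had 0.748 and 0.579 TPM and a ratio of 1.44.

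Of the immunoglobulin-type adhesion proteins, Esam and Jam3 gave 99.4% of the TPM in VSMCs and 96.9% in mcPCs. Esam, first described as an adhesion molecule of endothelial cells and platelets, had 487 TPM in VSMCs and 184 in mcPCs, above 97.7% and 98.6% of all listed genes. Its log2 ratio was 0.43 (95% interval 0.41 to 0.44). Its level in VSMCs exceeded that of each of the 10 endothelial markers there, of which Slc2a1 was the highest at 115 TPM. The part of endothelial cells in the values of Esam was not tested. Jam3 had 238 and 63.1 TPM and a ratio of -0.08 (95% interval -0.10 to -0.06). By contrast F11r, the gene of JAM-A, had 0.896 and 5.55 TPM and a log2 ratio of 4.46 (95% interval 4.27 to 4.66). The 8 endothelial markers past 2-fold had log2 ratios of 4.01 to 6.54, and Slc2a1 and Flt1 of the same list -0.50 and -0.78. Jam2 had 3.60 and 2.32 TPM and a ratio of 1.19 (95% interval 1.09 to 1.28).

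The connexins were dominated by the same pair in both cell types. Gja4 and Gjc1 gave 99.5% of the connexin TPM in VSMCs and 98.9% in mcPCs. Gja4, known as a connexin of the arterial wall, had 500 TPM in VSMCs against 155 in mcPCs, from 28006 and 15983 reads per sample, and a log2 ratio of 0.16 (95% interval 0.14 to 0.18). Gjc1, a connexin of smooth muscle and of the cardiac conduction system, had 492 and 197 TPM, from 27757 and 20687 reads per sample, and a ratio of 0.53 (95% interval 0.51 to 0.54). Each stood above 97.8% of all listed genes in VSMCs, and in mcPCs above 98.4% (Gja4) and 98.7% (Gjc1).

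The other 6 connexins were rare. Gja5, the main gap junction gene of arterial endothelium, had 1.05 TPM in VSMCs and 0.0351 in mcPCs, with a log2 ratio of -2.96 (95% interval -3.64 to -2.35) that rested on 7.67 reads per mcPC sample. Gja1, the gene of the most widespread connexin, abundant in astrocytes, had the opposite direction with 0.125 and 2.68 TPM and a ratio of 6.29 (95% interval 5.86 to 6.79). Gjb2, found in astrocytes and leptomeninges, had 0.113 and 0.651 TPM and a ratio of 4.25 (95% interval 3.70 to 4.86). Of 5 astrocyte markers with a row, 4 were higher in mcPCs, against 22% of all genes, and Fgfr3 was higher in VSMCs. The 4 higher in mcPCs were under 1 TPM in VSMCs, where 65.8% of all genes were higher in mcPCs. Slc1a3, which encodes the GLAST protein used to remove astrocytes, had a log2 ratio of 7.15, S100b of 4.12, Gfap of 3.27 and Aqp4 of 2.44. The part of astrocytes in the value of Gja1 was not tested.

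Pannexins form channels in single membranes through which ATP leaves the cell. Panx1 had 5.66 TPM in VSMCs against 1.46 in mcPCs, with a log2 ratio of -0.05 whose interval (-0.17 to 0.08) included 0. Panx2, better known from the nervous system, had 0.0744 and 0.190 TPM and a ratio of 3.16 (95% interval 2.50 to 3.87), from 7.67 reads per VSMC sample.

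Genes of the same junctions whose symbols fall outside these families were counted in the same way. Of 48 symbols looked for, 35 had a row. The 48 hold 2 names for some genes (Pvrl1, Pvrl2 and Pvrl3 beside Nectin1, Nectin2 and Nectin3, and Afdn beside Mllt4). Of the 35, 17 were past 2-fold in favour of mcPCs, 7 in favour of VSMCs and 11 neither. These shares were 48.6% and 20%, against 22% and 13.9% of all genes. The median log2 ratio was 0.67. Ctnnb1, the gene of beta catenin, and Vcl, which encodes vinculin, were abundant in both and within 2-fold, at log2 ratios of -0.67 and -0.68. Among relatives of p120 catenin, Pkp4 had 55.4 TPM in VSMCs and 1.51 in mcPCs (log2 ratio -3.38), and Arvcf had 121 and 7.92 TPM (log2 ratio -2.13). Jup, the gene of plakoglobin, had the opposite direction, at 13.7 and 19.4 TPM (log2 ratio 2.31). Cnst, whose product brings connexins to the cell surface, had 54.0 and 2.71 TPM (log2 ratio -2.51), beside the ratios of 0.16 and 0.53 of Gja4 and Gjc1.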

How the data were processed

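Poly(A)+ RNA of 3 VSMC and 3 mcPC samples was sequenced from strand-specific libraries, each in 4 runs. Per the labels and the study's methods, the authors trimmed the reads with Eoulsan, quantified them with Salmon 0.8.0 on Ensembl transcripts (build Rnor_6.0), used tximport for sums per gene and DESeq2 for normalization. The deposited table of the series gives, per gene and cell type, the authors' mean TPM, the authors' mean estimated counts per run, the authors' mean normalized counts (a signal that corrects for depth and transcript length) and the authors' mean effective length. Columns of the authors' own comparison (log2 fold change, standard error, statistic, p-value and adjusted p-value) and their mean over all samples were not used.

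Log2 ratios of mean normalized counts were computed without a pseudocount for all 14607 rows, and at least 2-fold was taken as a difference. Reads per sample are the mean counts times 4. Of these means, 69.8% in VSMCs and 71.5% in mcPCs were whole reads over the 12 runs of a cell type (within 0.01 read). Intervals are exact Clopper-Pearson intervals (95%) of the mcPC share of a gene's reads, and reads without molecular identifiers are not independent molecules. Groups were taken from the cell type in the labels. With means only, no test was run. The members, the lists and the 2-fold limit were chosen with earlier results of these data known. Members named are the 3 most abundant per family and cell type, the 10 lowest and 10 highest ratios with at least 10 reads per sample, and 36 genes of known role, of which 4 (Cldn3, Gjb6, Gjc3 and Ctnna2) had no row. Members named outside this rule, such as single clustered protocadherins, Pcdh9, Pcdh11x, Pcdh20, Cdh8, Cdh12 and Tjp3, were chosen after their values were seen. Values of some single members are not reported here. Markers were matched by symbol, and Pecam1, Ly6c1, Slc1a2, Aldh1l1, Rbfox3, Syt1, Slc17a7, Olig1, Sox10, P2ry12, Aif1, Itgam, Col1a2 and Dsp had no row. Of 3 microglial markers with a row, 3 were higher in mcPCs. All were under 1 TPM in VSMCs, where 65.8% of all genes were higher in mcPCs. Promoters (RefSeq, GRCr8) were matched by Entrez gene identifier for 66 members. They count as 65 genes because an identifier shared by members was counted once. Alternatives were TPM ratios centred on the median gene, counts scaled to the same total with and without erythrocyte genes, pseudocounts of 1 and 10, a minimum of 0.8 TPM in VSMCs, a minimum of 10 reads, a 4-fold limit and intervals wholly past 2-fold. The steps were tested on simulated data. Tools were matplotlib 3.10.9, numpy 2.4.6, Python 3.11.15, scipy 1.17.1 and pandas 2.3.3.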

Additional observations from a re-analysis of the deposited data

How the results depend on the processing

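The number of members at least 2-fold higher in mcPCs, 42, was 20 of 63 (31.7%) with a minimum of 0.8 TPM in VSMCs, where 13.1% of all 12218 genes were higher in mcPCs, 23 of 59 (39.0%) without the clustered protocadherins (a choice made after seeing the data) and 25 of 96 at 4-fold. It stayed between 34 and 43 under the other alternatives. The number higher in VSMCs, 11, was 6 at 4-fold, 17 with counts scaled to the same total, and 10 or 11 otherwise. The median log2 ratio of 0.72 was 0.17 on counts scaled to the same total, 0.51 with a pseudocount of 10, 0.30 with the minimum of 0.8 TPM and 0.38 without the clustered protocadherins. Counts scaled to the same total have a median of -0.55 over all genes, against 0.01 once erythrocyte genes are left out, and relative to it the numbers were 42 and 11 and the median 0.72. No member past 2-fold changed sign under any of the scalings or pseudocounts. A pseudocount cannot change a sign, and the shift to a median of -0.55 is smaller than the 2-fold limit. The unchanged signs therefore say little about robustness. No paired analysis was possible because the table gives means only, and for the same reason no replicate was left out in turn. Depth limits the rarest members: 4 had under 10 reads per sample in the cell type where they were higher.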

Other observations

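Beyond the genes described above, planar polarity cadherins and polarity scaffolds were divided between the cell types. Celsr1, Celsr2 and Celsr3 were higher in mcPCs (log2 ratios 2.40, 2.39 and 7.91), as were Magi2 (2.60) and Pard6b (3.11). Of these, all but Celsr2 were under 1 TPM in VSMCs. Fat3 was higher in VSMCs (-2.71), while Fat4 (-0.87), Magi3 (-0.69), Pard3 (-0.70) and Pard6a (-0.36) stayed within 2-fold. The genes named next were not picked by a rule. Fat1, an atypical cadherin, had 68.6 TPM in VSMCs against 8.37 in mcPCs (log2 ratio -1.20), and the tight junction scaffold Magi1 had 24.2 and 1.69 TPM (log2 ratio -2.06). Amotl1, an angiomotin relative that binds actin and junction scaffolds, had 71.8 and 4.96 TPM (log2 ratio -2.06). Dchs1, a partner of Fat cadherins, had the opposite direction with 0.180 and 1.87 TPM (log2 ratio 5.21), as did Pard6g with 6.66 and 9.32 TPM (log2 ratio 2.32) and the nectins Nectin1 (log2 ratio 2.22) and Nectin2 (log2 ratio 1.46), while Nectin3 stayed within 2-fold at -0.80. Cgnl1, the gene of paracingulin, a protein of endothelial and epithelial junctions, had 0.416 and 2.89 TPM (log2 ratio 4.56). The 8 endothelial markers past 2-fold had log2 ratios of 4.01 to 6.54, and Slc2a1 and Flt1 of the same list -0.50 and -0.78. No test was possible for any of these.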
